A study of Mus musculus with 22 samples.

Results

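The phase II enzymes of 3 gene families were followed through newborn mouse liver, the UDP-glucuronosyltransferases (UGT), the glutathione S-transferases (GST) and the sulfotransferases (SULT). Members were all genes whose symbol begins with Ugt1a, Ugt2a, Ugt2b, Ugt3a, Gsta, Gstm, Gstp, Gstt, Sult1, Sult2, Sult3 or Sult5, without the pseudogene mark -ps, and they were chosen by a mean expected count of at least 10 over the 22 livers. Of 57 such symbols among 55291 genes, 41 met the minimum, made up of 14 UGT, 17 GST and 10 SULT genes, and none was a Sult3 gene. The members just inside were Ugt1a10 (mean expected count 10.5), Sult2a6 (12.8), Gsta1 (13.0) and Gsta2 (13.2), and the genes just outside were Sult2a3 (6.41) and Sult2b1 (5.68). The minimum used abundance over all livers and no comparison between groups.

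The livers came from male wild-type C57BL/6 pups injected intravenously on postnatal day 1 and taken 36 hours later, after which messenger RNA was sequenced. The study asked how the liver responded to gene therapy for GM3 synthase deficiency, in which ST3GAL5, the sialyltransferase that makes the ganglioside GM3, is replaced. The 6 groups received PBS (4 livers), AAV9.empty, which is the capsid without a genome (4), AAV9.EGFP, with green fluorescent protein behind the ubiquitous CB promoter (4), rAAV9-ST3GAL5.v1, with human ST3GAL5 cDNA behind CB (3), the E332K vector, with the same promoter and a human ST3GAL5 cDNA labelled E332K (3), and rAAV9-ST3GAL5.v2, with human ST3GAL5 behind the neuronal Syn1 promoter followed by binding sites for miR-122, the hepatocyte microRNA (4). All pups were wild type, so every liver kept its own St3gal5 gene, and litters are not given in the labels. The short names v1, v2, E332K, EGFP and empty are used below for these vectors.

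Phase II enzymes attach a water-soluble group to a drug, hormone or waste product so that it can leave in bile or urine. UGT enzymes sit in the endoplasmic reticulum and transfer glucuronic acid from UDP-glucuronic acid, and UGT1A1 is the enzyme that conjugates bilirubin. GST enzymes couple glutathione to electrophiles, and SULT enzymes transfer sulfate from PAPS to phenols, steroids and bile acids. The hepatocyte is their main site in liver, and many of these genes are under the control of hepatocyte transcription factors and of the receptors CAR, PXR, PPARA and AHR or the stress factor NRF2.

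The libraries held 17164502 to 24305788 expected counts. Levels are given as CPM, the count of a gene scaled to a common library size with TMM factors, and levels set between genes as TPM, which also scales for transcript length. The summed TPM of the 41 members was 6601 in E332K replicate 3, against 3759 and 3674 in the other E332K livers and 1745 to 3600 in the livers of the other groups, so it is said below which calls with the E332K vector were kept without that liver. Gm47283, annotated on chromosome Y, had no count in the 3 v1 livers, in 1 of 4 empty, 3 of 4 EGFP and 2 of 4 v2 livers. It was counted in all PBS and E332K livers. Counts with v1 are also given from a fit that holds its presence as a covariate. Against E332K that fit could not be made. In whole liver, fewer cells of a type and less RNA per cell cannot be told apart.

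The promoters of 3 GST members are shown first, because GST genes are textbook targets of a stress-response element. Of the 41 members, 35 had a promoter window in RefSeq (GRCm38.p6, 250 bases before to 50 after the start). The letters TGACNNNGC, the core of the antioxidant response element bound by NRF2, were found in 3 of 35 member promoters (8.57%), a smaller share than the 14% of 27025 symbols with a window. All 3 were GST genes, shown with the 9 letters in capitals:
Gsta3 (chr1:21240454-21240482, plus strand): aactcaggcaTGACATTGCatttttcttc
Gstm5 (chr3:107895802-107895830, plus strand): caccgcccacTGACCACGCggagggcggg
Gstm7 (chr3:107931725-107931753, minus strand): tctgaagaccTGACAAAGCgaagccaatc
The letters TNGCGTG of the dioxin response element were in Gsta2 and Sult1d1 (5.71%, against 5.84% of all symbols), and the HNF4 letters CAAAGTCCA were in Sult1b1 (2.86%, against 0.555%). All of these were searched on both strands, and a match describes the letters only.

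Most members lie in clusters of related genes (GENCODE vM21, GRCm38), and all 41 are protein-coding. The 6 Ugt1a members lie on chromosome 1, where each has a first exon of its own and all share the last exons, as for Ugt1a1 (chromosome 1, 88211959 to 88218997, plus strand). The Ugt2b and Ugt2a members lie beside Sult1b1 and Sult1d1 on chromosome 5, the 7 Gstm members on chromosome 3 from 107895821 to 108044894, the 3 Gstp members on chromosome 19 from 4035407 to 4059569 and the 3 Gstt members on chromosome 10 from 75774115 to 75837424. Such neighbours share sequence, and counts between them were partly estimated by RSEM. Of the 31-base words in the transcripts of each gene, 38.5% in Gstp1, 60.3% in Gstp2, 55.6% in Sult2a1, 51.1% in Sult2a5, 28.8% in Gstm1 and 81.3% in Ugt1a1 also occur in another gene, against 2.04% in Sult1c2 and 0.468% in Gstt1. Separate values for Gstp1 and Gstp2, for Sult2a1, Sult2a2 and Sult2a5 and for the Ugt1a genes are therefore uncertain. Their sums are given beside them for some of the groups.

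Gstp1, the main Pi-class GST, had the highest level of the 41 members, at a mean of 1127 TPM over the 22 livers. It was followed by its neighbour Gstp3 (316 TPM), by Gsta3, an Alpha-class enzyme known for conjugating the aflatoxin epoxide (258), by Gstm1 of the Mu class (219.8) and by Ugt1a1 (197). Sult1a1, the phenol sulfotransferase, was the highest SULT gene (149 TPM), and Gstt1 of the Theta class had 106 TPM. The highest Ugt2b gene was Ugt2b34 (72.1 TPM), close to Ugt2b5 (68.6). At the other end, Ugt1a10 had a mean of 0.269 TPM. These are levels per transcript length and were not tested between genes.

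Most phase II genes were lower in the livers that received v1 than in those that received the empty capsid. Of 40 members tested, 28 fell, 1 rose and 11 did not pass an adjusted p of 0.05 (edgeR quasi-likelihood test, Benjamini-Hochberg adjustment over all genes tested), where 14.3% of the 14876 genes tested fell and 13.8% rose. The median log2 fold change of the members was −0.82, against 0.02 over all genes. The count of members that fell was 22 to 31 when any 1 liver was left out. With the presence of Gm47283 as a covariate it was 8, and these were Ugt1a9, Gsta3, Gsta4, Gstm7, Gstp3, Sult1a1, Sult1c2 and Sult2a8. In that fit the v1 livers are set against the single empty liver without Gm47283, and 0 called members changed direction. The share of all genes called was not counted in the covariate and leave-out fits. Whether their counts differ from genes at large is therefore not known.

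**Figure D1:**
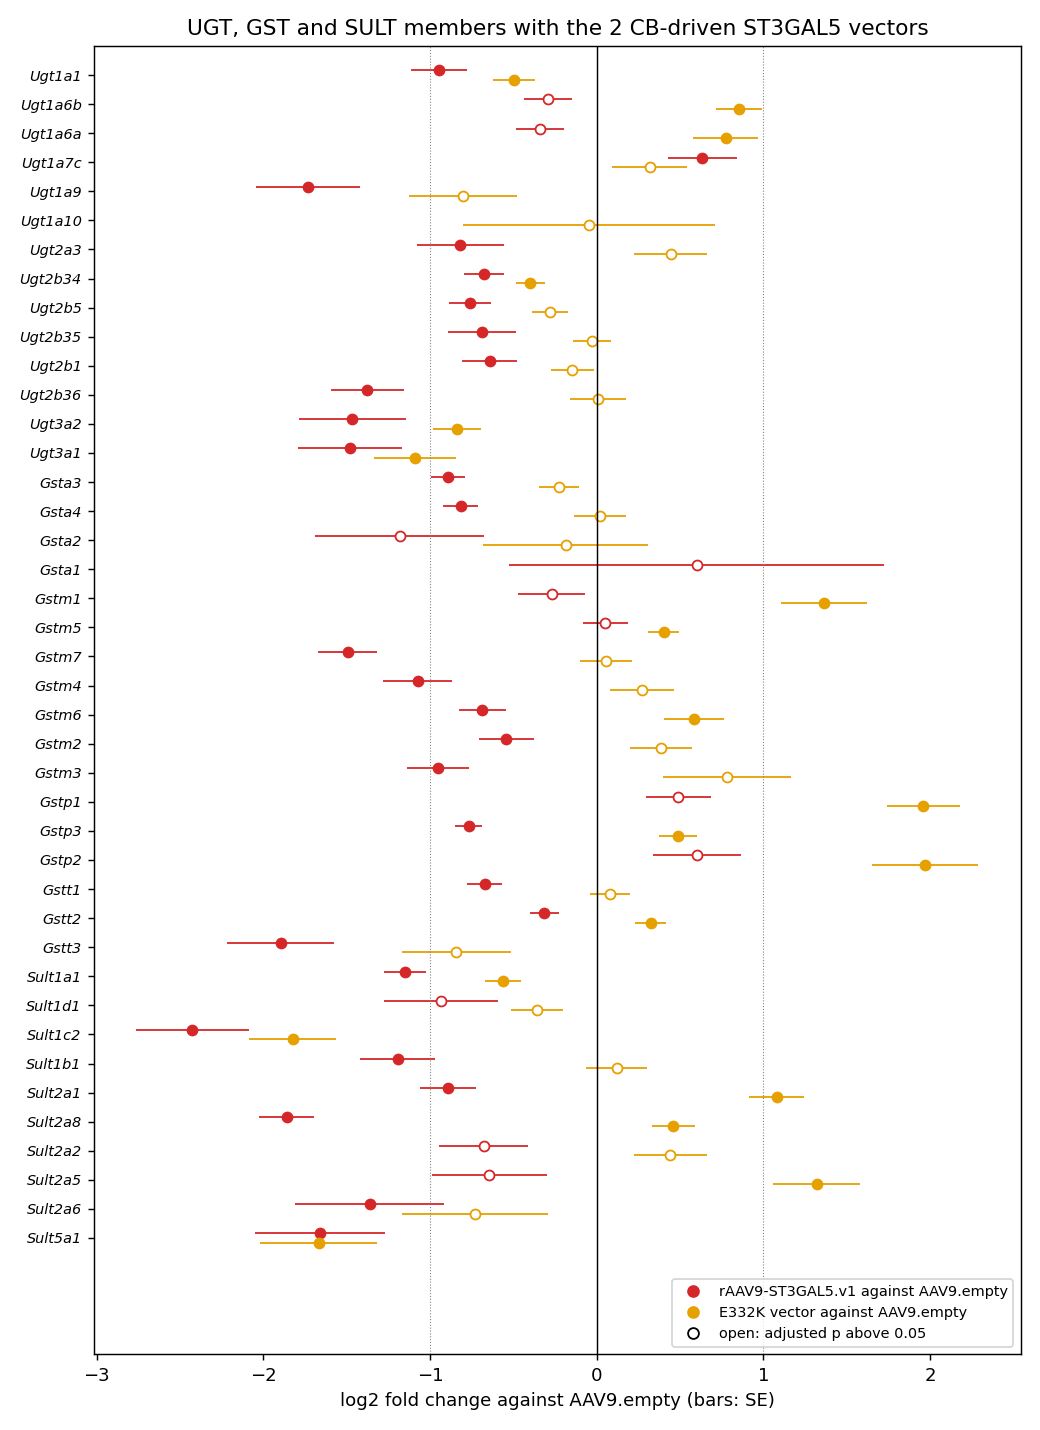
Log2 fold change of each member with rAAV9-ST3GAL5.v1 (red) and with the E332K vector (orange), both against AAV9.empty, with SE as bars. Filled points passed an adjusted p of 0.05. With v1, 28 filled points lie left of 0 and 1 right of it, and with the E332K vector 7 lie left and 12 right.

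Among the UGT genes, 10 of 14 fell with v1, 1 rose, 2 did not pass and Ugt1a10 was not tested. Ugt1a1, the bilirubin enzyme, stood at 424, 475, 476 and 327 CPM in the empty livers and at 182, 272 and 207 CPM in the v1 livers. Its groups did not overlap, with every v1 liver lower (log2 fold change −0.95, SE 0.17, edgeR adjusted p = 0.00329). Ugt1a9, a neighbour in the same cluster, had 2.79, 1.88, 3.64 and 3.81 CPM with empty and 0.774, 1.10 and 0.85 CPM with v1, and all v1 livers were lower (log2 fold change −1.73, SE 0.31, edgeR adjusted p = 0.00376). Ugt1a6a and Ugt1a6b, which encode phenol-conjugating enzymes, did not pass (−0.34 and −0.29 on the log2 scale). Ugt1a7c was the only member higher with v1, at 3.07, 3.50, 4.61 and 3.27 CPM with empty and 6.87, 5.08 and 4.81 CPM with v1 (log2 fold change 0.63, SE 0.21, edgeR adjusted p = 0.0467), and its adjusted p was 0.054 to 0.202 when 1 of 5 livers (empty replicate 1, 2 or 4, v1 replicate 1 or 2) was left out. Summed over the 6 Ugt1a members, which share their last exons, the level was 498 ± 73.8 (SD, n = 4) CPM with empty and 279.7 ± 48.0 (SD, n = 3) CPM with v1.

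All 5 Ugt2b members, whose enzymes conjugate steroids and drugs, fell with v1, by log2 fold changes of −0.64 (Ugt2b1), −0.68 (Ugt2b34), −0.69 (Ugt2b35), −0.76 (Ugt2b5) and −1.38 (Ugt2b36). Ugt2b34 had 225, 218, 219 and 224 CPM with empty and 140.3, 112 and 163 CPM with v1 (log2 fold change −0.68, SE 0.12, edgeR adjusted p = 0.00316), and the 2 groups did not overlap. The calls of Ugt2b35 and Ugt2b1 were lost without empty replicate 1 or 3 or v1 replicate 1, and that of Ugt2b35 also without empty replicate 2 (adjusted p 0.0525 to 0.0986). Ugt2a3, a related gene of the same cluster, had 3.58, 2.61, 3.31 and 2.78 CPM with empty and 1.21, 1.74 and 2.23 CPM with v1 (log2 fold change −0.82, SE 0.26, edgeR adjusted p = 0.0427). Its call was lost without any 1 of 6 livers, all but v1 replicate 3, with adjusted p of 0.0528 to 0.158. Ugt3a1 and Ugt3a2, whose human counterparts use other UDP sugars than glucuronic acid, both fell. Ugt3a1 had 2.89, 3.61, 3.42 and 2.98 CPM with empty and 0.823, 1.79 and 0.85 CPM with v1 (log2 fold change −1.48, SE 0.31, edgeR adjusted p = 0.00742). Ugt3a2 had 24.9, 22.7, 28.0 and 19.6 CPM and 4.40, 14.1 and 7.36 CPM (log2 fold change −1.47, SE 0.32, edgeR adjusted p = 0.00897). In both genes v1 replicate 2 was the highest of the v1 livers and still below every empty liver.

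Among the GST genes, 11 of 17 fell with v1, 0 rose (2 at an unadjusted p under 0.05) and 6 did not pass. The Alpha-class gene Gsta3 had 268, 269, 252 and 293 CPM with empty and 130.3, 138 and 167 CPM with v1, with the 2 groups well apart (log2 fold change −0.89, SE 0.10, edgeR adjusted p = 4.74e-04). Gsta4, known for the conjugation of 4-hydroxynonenal, fell by a similar log2 fold change (log2 fold change −0.82, SE 0.10, edgeR adjusted p = 7.42e-04). In the Mu class 5 of 7 members fell. Gstm7 fell most, from 33.4, 22.8, 29.8 and 25.0 CPM with empty to 8.28, 9.02 and 12.1 CPM with v1 (log2 fold change −1.49, SE 0.17, edgeR adjusted p = 5.11e-04). Gstm4 (−1.08), Gstm3 (−0.95), Gstm6 (−0.69) and Gstm2 (−0.54) also fell, but the last lost its call, with an adjusted p of 0.05 (before rounding above it) to 0.0947, when any 1 liver other than v1 replicate 3 was left out. Gstm1, the most abundant Mu gene, had 172, 135, 149 and 169 CPM with empty and 129, 85.7 and 173 CPM with v1, and the groups overlapped (log2 fold change −0.27, SE 0.20, edgeR adjusted p = 0.355). Gstm5 likewise did not pass (log2 fold change 0.05, SE 0.13, edgeR adjusted p = 0.809).

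The Theta class fell throughout, with Gstt3 lowest at 2.71, 1.35 and 3.16 CPM in the v1 livers against 13.2, 8.0, 7.70 and 7.27 CPM with empty (log2 fold change −1.90, SE 0.32, edgeR adjusted p = 0.00267). Gstt1 had 73.1, 85.1, 86.3 and 79.6 CPM with empty and 47.9, 45.8 and 58.2 CPM with v1 (log2 fold change −0.67, SE 0.10, edgeR adjusted p = 0.00182). The fall of Gstt2 was small (log2 fold change −0.31, SE 0.09, edgeR adjusted p = 0.0254), and its adjusted p was 0.0609 to 0.0721 without empty replicate 1 or 3 or v1 replicate 1 or 2. The Pi class differed among its own members. Gstp3 had 114, 121, 116 and 104 CPM with empty and 64.1, 64.2 and 70.9 CPM with v1 (log2 fold change −0.77, SE 0.08, edgeR adjusted p = 3.58e-04). Gstp1, in contrast, had 356, 342, 357 and 398 CPM with empty and 537, 327 and 661 CPM with v1, with v1 replicate 2 below the empty livers and the other 2 above them (log2 fold change 0.49, SE 0.19, edgeR adjusted p = 0.088). Gstp2, which shares most of its sequence with Gstp1, did not pass (log2 fold change 0.60, SE 0.26, edgeR adjusted p = 0.12). The sum of Gstp1 and Gstp2 was 368 ± 24.6 (SD, n = 4) CPM with empty. With v1 this sum was 515 ± 171 (SD, n = 3) CPM.

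Among the SULT genes, 7 of 10 fell with v1, 0 rose (0 at an unadjusted p under 0.05) and 3 did not pass. Sult1c2, a cytosolic SULT1C enzyme (chromosome 17, 53829637 to 53846339, minus strand), showed the largest fall of the 41 members in this comparison, from 15.5, 14.2, 12.2 and 6.78 CPM with empty to 2.03, 1.49 and 3.16 CPM with v1 (log2 fold change −2.43, SE 0.34, edgeR adjusted p = 0.0011). The empty livers themselves ranged over more than 2-fold, and their lowest was above the highest v1 liver. Sult1a1, the phenol sulfotransferase, had 189, 152, 154 and 143 CPM with empty and 60.9, 74.5 and 79.7 CPM with v1 (log2 fold change −1.15, SE 0.13, edgeR adjusted p = 3.85e-04). Sult1b1, which sulfates thyroid hormones, fell as well (log2 fold change −1.20, SE 0.23, edgeR adjusted p = 0.00473), and Sult1d1, whose substrates include catecholamines, did not pass (log2 fold change −0.93, SE 0.34, edgeR adjusted p = 0.0689). Sult2a8, which sulfates bile acids, had 15.9, 12.1, 17.6 and 15.6 CPM with empty and 3.58, 4.58 and 4.41 CPM with v1 (log2 fold change −1.86, SE 0.16, edgeR adjusted p = 1.55e-04). Sult2a1, of the enzymes that sulfate dehydroepiandrosterone and bile acids, had 15.1, 14.4, 11.4 and 14.2 CPM and 8.03, 5.68 and 8.50 CPM (log2 fold change −0.89, SE 0.17, edgeR adjusted p = 0.00434). Summed with its near copies Sult2a2 and Sult2a5, the level was 20.8 ± 2.02 (SD, n = 4) CPM with empty and 11.8 ± 2.36 (SD, n = 3) CPM with v1. Sult5a1, a little-studied member (chromosome 8, 123140192 to 123158315, minus strand), had 3.68, 3.71, 2.93 and 1.71 CPM with empty and 0.484, 1.30 and 1.05 CPM with v1 (log2 fold change −1.66, SE 0.39, edgeR adjusted p = 0.0128). The fall of Sult2a6, close to the minimum count, was lost without any 1 of the v1 livers (adjusted p 0.076 to 0.164).

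The same members were compared with the other vector groups, since both EGFP and v2 livers also received a genome-carrying AAV9. Against EGFP, 27 of 39 members tested were lower with v1 and 0 higher, where 15.1% of 14875 genes were lower and 12.7% higher, with a median of −0.86 for the members. This count was 21 to 28 without any 1 liver and 25 with the presence of Gm47283 as a covariate. Against v2, 21 of 40 were lower and 0 higher, where 11.3% of 14906 genes were lower and 12.1% higher, with a median of −0.76. That count was 8 without v1 replicate 1, 11 without v1 replicate 2, 13 without v2 replicate 1, 11 without v2 replicate 2 and 7 with Gm47283 as a covariate. In neither comparison was any member higher at an unadjusted p under 0.05 (0 members), and DESeq2 also called 0 higher. These comparisons share the v1 livers with the comparison with empty, so they are not separate evidence. Sult2a8 had 13.1, 15.3, 12.6 and 16.7 CPM with EGFP and 23.4, 27.2, 13.1 and 13.6 CPM with v2, all above the v1 livers (−1.79 and −2.18 on the log2 scale). Gstp3 had 163, 155, 157 and 145 CPM with EGFP and 117, 151, 148 and 131 CPM with v2, again all above v1 (−1.23 and −1.02). Gstm7, with log2 fold changes of −1.52 and −1.27, kept both calls without any 1 liver. Sult2a1 kept neither, with adjusted p of 0.0561 to 0.107 against EGFP and 0.0687 to 0.11 against v2 for the livers whose removal ended the call, among them v1 replicates 1, 2 and 3.

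**Figure D2:**
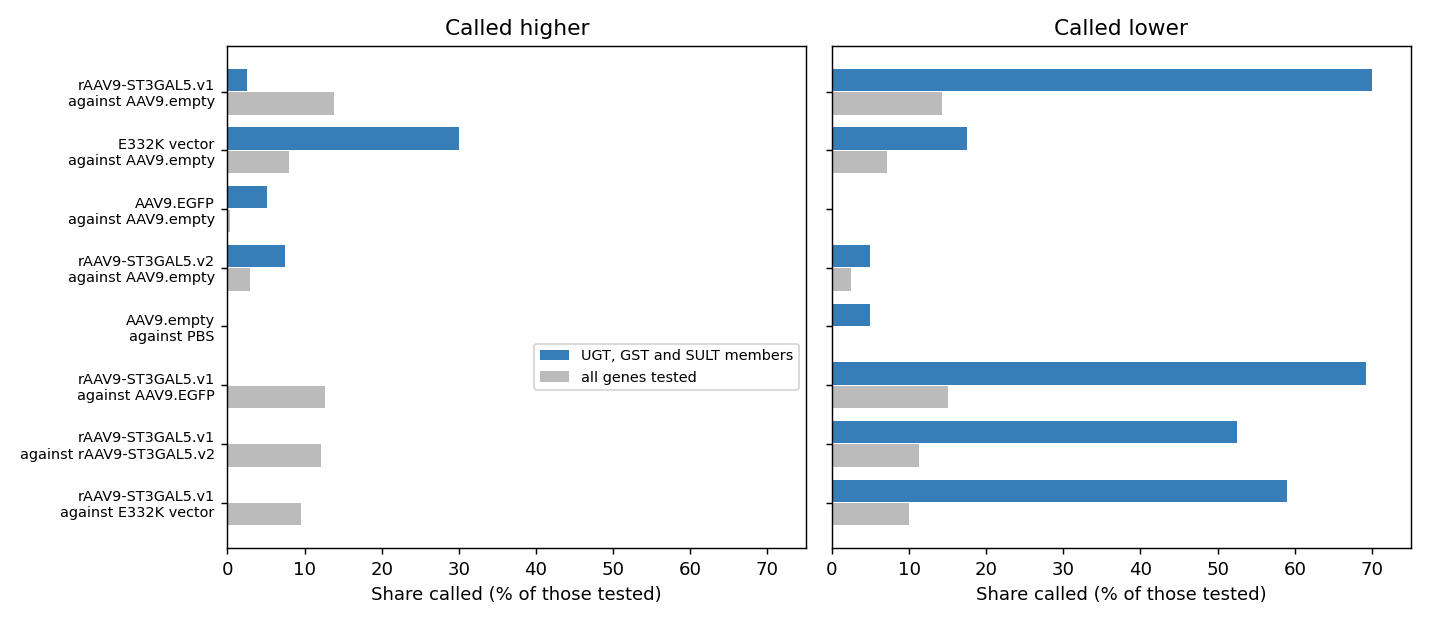
Share of the members tested (blue) and of all genes tested (grey) that were called higher (left) and lower (right) at an adjusted p of 0.05 in each of the 8 comparisons, in percent. For v1 the blue bars on the right stand above the grey ones in all 4 comparisons, where the grey bars are at 14.3%, 15.1%, 11.3% and 10%.

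With the E332K vector the members moved in both directions. Of 40 members tested, 12 rose and 7 fell against empty and 21 did not pass, where 7.93% of the 14759 genes tested rose and 7.09% fell. Their median log2 fold change was 0.07. By family, GST genes had 7 higher and 0 lower (1 at an unadjusted p under 0.05), SULT genes 3 higher and 3 lower, and UGT genes 2 higher and 4 lower. The count of higher members was 9 to 11 without any 1 liver and that of lower members 5 to 9. On the TPM scale (limma, log2(TPM + 1)) 6 members were higher. The rises of Ugt1a6a, Gstm5, Gstm6, Gstp3, Gstt2 and Sult2a8 did not pass there, nor with the replicate number as a block. In 1 fit of all 6 groups the rises of Sult2a1 and Sult2a8 did not pass. Without E332K replicate 3, the calls of Gstm6, Gstt2 and Sult2a8 were lost and the other 16 were kept, with log2 fold changes of 0.36 for Gstp3, 0.37 for Gstm5, 0.89 for Sult2a1, 1.28 for Sult2a5, 0.77 for Ugt1a6b, −1.72 for Sult1c2, −1.44 for Sult5a1, −0.96 for Ugt3a1, −0.87 for Ugt3a2, −0.58 for Sult1a1 and −0.50 for Ugt1a1.

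The Pi-class GST genes showed the largest rises with the E332K vector. Gstp1 had 356, 342, 357 and 398 CPM with empty and 1081, 977 and 2181 CPM with E332K, with every E332K liver above all livers of the other groups (log2 fold change 1.96, SE 0.22, edgeR adjusted p = 1.19e-04). Replicate 3 stood far above the other 2, and without it the log2 fold change was 1.51 (edgeR adjusted p = 1.67e-06). Gstp2 rose by a like amount (log2 fold change 1.97, SE 0.32, edgeR adjusted p = 0.00156), with 1.32 (edgeR adjusted p = 4.46e-04) without replicate 3. As Gstp1 and Gstp2 share much of their sequence, their sum was also taken, at 368 ± 24.6 (SD, n = 4) CPM with empty and 1431 ± 679 (SD, n = 3) CPM with E332K, where replicates 1 and 2 had 1093 and 987 CPM. Gstp3 rose less, to 148, 141 and 189 CPM (log2 fold change 0.49, SE 0.11, edgeR adjusted p = 0.0126). In the Mu class 3 of 7 members rose. Gstm1 had 172, 135, 149 and 169 CPM with empty and 257, 286 and 665 CPM with E332K (log2 fold change 1.37, SE 0.26, edgeR adjusted p = 0.00438), and 0.81 (edgeR adjusted p = 8.00e-04) without replicate 3. Gstm5 had 41.6, 40.3, 35.3 and 39.0 CPM with empty and 47.2, 53.1 and 54.8 CPM with E332K (log2 fold change 0.40, SE 0.09, edgeR adjusted p = 0.0127). The smaller rises of Gstm6 (log2 fold change 0.58, SE 0.18, edgeR adjusted p = 0.048) and Gstt2 (log2 fold change 0.32, SE 0.09, edgeR adjusted p = 0.0333) were lost without empty replicate 1 or 4 or E332K replicate 1 or 3, and also without empty replicate 3 for Gstm6 and replicate 2 for Gstt2 (adjusted p 0.0586 to 0.19).

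Among the SULT2A genes, Sult2a1 had 15.1, 14.4, 11.4 and 14.2 CPM with empty and 29.8, 21.1 and 36.9 CPM with E332K (log2 fold change 1.08, SE 0.16, edgeR adjusted p = 0.00111). Sult2a5 had 1.40, 1.67, 2.66 and 2.29 CPM and 5.87, 3.79 and 5.35 CPM (log2 fold change 1.32, SE 0.26, edgeR adjusted p = 0.00584). In both genes every E332K liver was above the empty livers. Summed over Sult2a1, Sult2a2 and Sult2a5, the level was 41.1 ± 10.7 (SD, n = 3) CPM with E332K and 33.2 ± 6.45 (SD, n = 4) CPM with PBS, next to 20.8 ± 2.02 (SD, n = 4) CPM with empty. Sult2a8 rose to 19.7, 20.2 and 23.4 CPM (log2 fold change 0.46, SE 0.13, edgeR adjusted p = 0.0316), still below the PBS livers at 26.1, 31.3, 26.6 and 25.6 CPM. Its call was lost without empty replicate 1, 2 or 4 or E332K replicate 2 or 3 (adjusted p 0.0511 to 0.0922). The phenol UGT genes Ugt1a6b (log2 fold change 0.85, SE 0.14, edgeR adjusted p = 0.00162) and Ugt1a6a (log2 fold change 0.77, SE 0.20, edgeR adjusted p = 0.0205) rose too, the latter with an adjusted p of 0.06 without empty replicate 3. Summed over the 6 Ugt1a members, the level was 424 ± 31.8 (SD, n = 3) CPM with E332K. With empty this sum was 498 ± 73.8 (SD, n = 4) CPM, and the 2 groups overlapped.

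**Figure D3:**
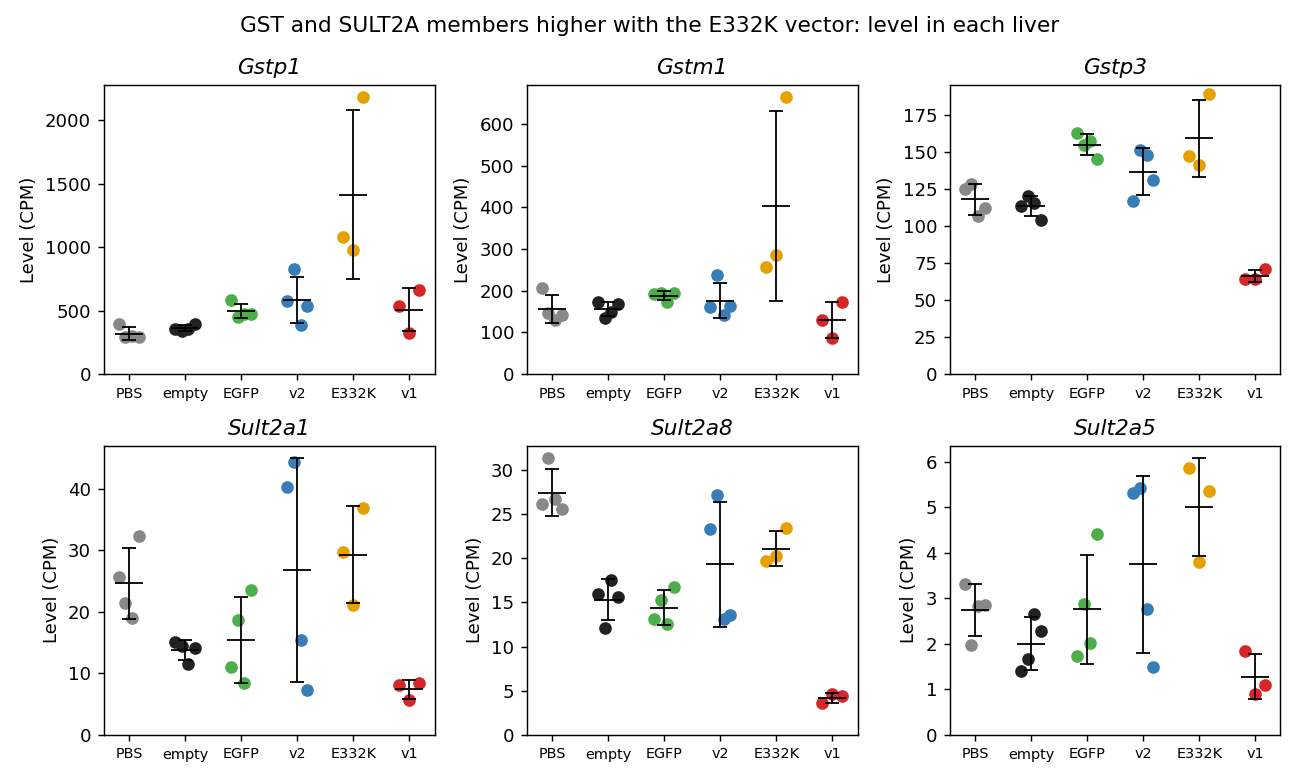
Level in CPM of 6 GST and SULT2A members higher with the E332K vector, 1 point for each liver, with the mean and SD of each group as bars. In the panels of Gstp1 and Gstm1 the third E332K liver stands above the other 2, at 2181 and 665 CPM, and in those of Gstp3, Sult2a1 and Sult2a8 the v1 livers lie lowest or among the lowest.

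The 7 members that fell with the E332K vector were Sult1c2, Sult5a1, Ugt3a1, Ugt3a2, Sult1a1, Ugt1a1 and Ugt2b34. The comparisons of E332K and of v1 share the empty livers, so their values are given side by side. Sult1c2 had 3.28, 4.04 and 2.92 CPM with E332K (log2 fold change −1.83, SE 0.26, edgeR adjusted p = 7.07e-04), against −2.43 with v1. Sult5a1 had 1.09, 1.10 and 0.608 CPM (log2 fold change −1.67, SE 0.35, edgeR adjusted p = 0.00818), against −1.66 with v1. For both SULT genes the E332K and v1 livers overlapped. Ugt3a1 had 1.49, 1.80 and 1.22 CPM with E332K (log2 fold change −1.09, SE 0.25, edgeR adjusted p = 0.0118) and Ugt3a2 had 14.9, 11.03 and 14.1 CPM (log2 fold change −0.84, SE 0.14, edgeR adjusted p = 0.00227). Sult1a1 had 108, 104 and 112 CPM with E332K, between the empty and the v1 livers with no overlap (log2 fold change −0.56, SE 0.11, edgeR adjusted p = 0.00437). Ugt1a1 had 296, 303 and 306 CPM (log2 fold change −0.50, SE 0.13, edgeR adjusted p = 0.0201), and its call was lost, at an adjusted p of 0.05 (just above the threshold before rounding) to 0.0689, without empty replicate 1, 2 or 3 or E332K replicate 1. The call of Ugt2b34 (log2 fold change −0.40, SE 0.09, edgeR adjusted p = 0.0104) was lost without E332K replicate 1 (adjusted p 0.0521).

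**Figure D4:**
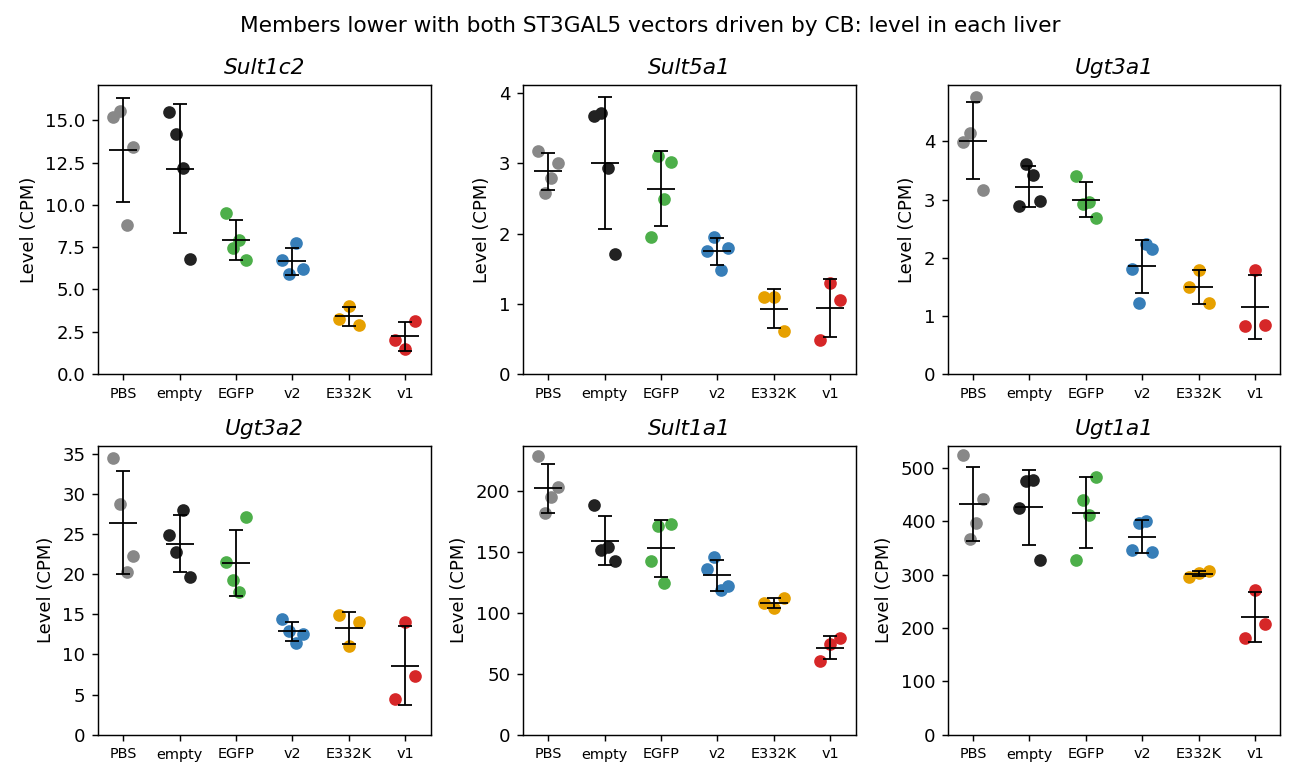
Level in CPM of 6 members lower with both rAAV9-ST3GAL5.v1 and the E332K vector, 1 point for each liver, with the mean and SD of each group as bars. In each panel all v1 and E332K livers lie below all empty livers, and the v2 livers lie between the PBS and v1 means.

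The 2 CB-driven ST3GAL5 vectors were also compared directly, and 23 of 39 members tested were lower with v1 than with E332K and 0 higher, where 10% of 14742 genes were lower and 9.55% higher. Gm47283 was counted in all 3 E332K livers and in no v1 liver. Its presence and the vector therefore cannot be told apart in this comparison. The median log2 fold change of the members was −0.92. The count was 10 to 25 without any 1 liver. It was 10 without v1 replicate 1, 14 without E332K replicate 1 and 11 without E332K replicate 3, and on the TPM scale it was 10. DESeq2 called 26 lower and 0 higher, and at an unadjusted p under 0.05 the number higher was 0. The largest differences among called members were in the SULT2A genes, Sult2a8 (log2 fold change −2.31, SE 0.15, edgeR adjusted p = 8.04e-04), Sult2a1 (log2 fold change −1.96, SE 0.24, edgeR adjusted p = 0.00379) and Sult2a5 (log2 fold change −1.95, SE 0.33, edgeR adjusted p = 0.00826). These 3 calls held without any 1 liver. Gstp3 (log2 fold change −1.25, SE 0.14, edgeR adjusted p = 0.00346) and Gstm7 (log2 fold change −1.54, SE 0.20, edgeR adjusted p = 0.00403) did so as well. The differences in Gstp1 (log2 fold change −1.46, SE 0.35, edgeR adjusted p = 0.0248) and Gstm1 (log2 fold change −1.63, SE 0.39, edgeR adjusted p = 0.0238) rested on 2 livers, with log2 fold changes of −0.998 (edgeR adjusted p = 0.0728) and −1.05 (edgeR adjusted p = 0.0617) without E332K replicate 3, and adjusted p of 0.0762 and 0.0815 without v1 replicate 1. For Sult1c2, Sult5a1, Ugt3a1 and Ugt3a2, lower with both, the direct difference did not pass, at −0.59 (SE 0.31), 0.02 (SE 0.44), −0.37 (SE 0.39) and −0.62 (SE 0.36) on the log2 scale.

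Few members changed with the other vectors. With EGFP against empty, 2 of 39 members rose, where 0.387% of 14473 genes rose, and 0 fell, where 0.0553% fell. DESeq2 called 0 lower as well, and 1 was lower at an unadjusted p under 0.05. The higher genes were Gstp3, at 163, 155, 157 and 145 CPM (log2 fold change 0.46, SE 0.06, edgeR adjusted p = 0.00261), and Gstp1, at 580.2, 453, 472 and 476 CPM (log2 fold change 0.45, SE 0.08, edgeR adjusted p = 0.0192), and both groups stood clear of the empty livers. The call of Gstp1 was lost without empty replicate 1, 2 or 3 or EGFP replicate 4 (adjusted p 0.0508 to 0.0982). With v2 against empty, 3 of 40 rose and 2 fell, where 2.88% of 14558 genes rose and 2.5% fell. The higher members were Ugt1a7c (log2 fold change 0.82, SE 0.18, edgeR adjusted p = 0.026), Gstp1 (log2 fold change 0.69, SE 0.17, edgeR adjusted p = 0.0416) and Gstm5 (log2 fold change 0.46, SE 0.09, edgeR adjusted p = 0.0153), and the lower ones were Ugt3a2 (log2 fold change −0.88, SE 0.12, edgeR adjusted p = 0.0019) and Sult1c2 (log2 fold change −0.86, SE 0.22, edgeR adjusted p = 0.0394). Of these 5 calls, that of Ugt3a2 held without any 1 liver, at 14.4, 13.0, 11.5 and 12.6 CPM with v2. The others were lost without at least 2 livers each, among them empty replicate 2, with adjusted p of 0.0528 to 0.129.

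The 4 v2 livers fell into pairs in the SULT2A genes. Sult2a1 had 40.3, 44.3, 15.4 and 7.22 CPM and Sult2a8 23.4, 27.2, 13.1 and 13.6 CPM, with replicates 1 and 2 high and replicates 3 and 4 low in both genes, and neither passed against empty (log2 fold change 0.96, SE 0.41, edgeR adjusted p = 0.194, and log2 fold change 0.34, SE 0.22, edgeR adjusted p = 0.386). Gstt3, outside the SULT2A genes, had the same pairs, at 8.86, 8.42, 3.08 and 3.31 TPM. Gm47283 was counted in v2 replicates 1 and 2 and not in 3 and 4. In EGFP the only liver with Gm47283, replicate 3, was lowest in Sult2a1 (12.1 TPM) and Sult2a8 (7.47 TPM). In empty the only liver without Gm47283, replicate 4, lay within the range of the others in both genes. The part of Gm47283 in this spread was not tested.

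The empty capsid itself was compared with PBS. Of 40 members, 2 were lower with empty, where 0.207% of 14476 genes were lower, and 0 higher, where 0.104% were higher. Both are bile acid or steroid sulfotransferases. Sult2a8 had 26.1, 31.3, 26.6 and 25.6 CPM with PBS and 15.9, 12.1, 17.6 and 15.6 CPM with empty (log2 fold change −0.85, SE 0.12, edgeR adjusted p = 0.00767). Sult2a1 had 25.6, 21.5, 19.0 and 32.4 CPM with PBS and 15.1, 14.4, 11.4 and 14.2 CPM with empty (log2 fold change −0.83, SE 0.15, edgeR adjusted p = 0.0279), and its call was lost without PBS replicate 4 or empty replicate 2, 3 or 4 (adjusted p 0.0635 to 0.1). For both genes every PBS liver stood above every empty liver. By unadjusted p, 1 member was higher with empty at a p under 0.05, and DESeq2 called 4 members lower and 0 higher.

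Summed over all members of a family, the Gstp genes had 481 ± 17.9 (SD, n = 4) CPM with empty, 581 ± 174 (SD, n = 3) with v1 and 1590.0 ± 705 (SD, n = 3) with E332K, where E332K replicates 1 and 2 had 1241 and 1128 CPM. The Ugt2b sum was 449 ± 14.3 (SD, n = 4) CPM with empty, 268 ± 55.0 (SD, n = 3) with v1 and 372 ± 34.0 (SD, n = 3) with E332K. The Sult1 sum was 272 ± 20.1 (SD, n = 4) CPM with PBS, 213 ± 29.0 (SD, n = 4) with empty, 94.8 ± 17 (SD, n = 3) with v1 and 145 ± 7.32 (SD, n = 3) with E332K, and the Sult2 sum 61.9 ± 4.79 (SD, n = 4), 36.7 ± 1.97 (SD, n = 4), 16.2 ± 2.23 (SD, n = 3) and 62.5 ± 12.2 (SD, n = 3) in the same order. In E332K replicates 1 and 2 the Sult2 sum was 62.4 and 50.4 CPM. The Gsta sum was 294 ± 14.7 (SD, n = 4) CPM with empty and 159 ± 20.0 (SD, n = 3) with v1, and the Gstt sum 134 ± 5.47 (SD, n = 4) and 88.5 ± 10.1 (SD, n = 3). A sum is led by its most abundant gene, so that Gstp1 sets the Gstp sum and Gsta3 the Gsta sum. These sums were not tested.

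Of the other conjugating and detoxifying enzymes, 1 of 16 was higher and 5 were lower with v1 (median −0.23). Over all genes tested, 13.8% were higher and 14.3% lower with v1, and 7.93% were higher and 7.09% lower with E332K. The lists here and below were not tested against these shares. The values that follow are log2 fold changes against empty unless PBS is named, and each gene named passed an adjusted p of 0.05. Inmt, which methylates amines, fell in 3 vector groups, with log2 fold changes against empty of −3.30 with v1, −2.75 with E332K and −1.50 with EGFP, and was lower with empty than with PBS (−1.15). Ephx1, the microsomal epoxide hydrolase, rose by 0.57 with v1, 1.56 with E332K, 0.99 with EGFP and 1.11 with v2. The glutathione transferases of other classes, Gstz1 (−1.05) and Gstk1 (−1.07), fell with v1. With E332K, 2 of these 16 genes were higher and 1 lower. Among the genes that supply or carry the cofactors, 4 of 20 were higher and 7 lower with v1, and 1 was higher and 4 lower with E332K. For sulfate, the PAPS synthase Papss2 (−0.85) and the sulfate carrier Slc26a1 (−1.48) fell with v1, and Papss1 rose with E332K (0.75). For glutathione, Cbs (−0.74) and Cth (−1.42), which make cysteine from homocysteine, fell with v1 while glutathione reductase Gsr rose (0.48). Ugdh, which makes UDP-glucuronic acid, rose with v1 (0.45). Of 6 deconjugating enzymes, 3 were lower with v1, 2 with E332K and 0 higher in either.

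Among 19 receptors and transcription factors known to act on these genes, 3 were higher and 9 lower with v1 (median −0.27), and 2 were higher and 2 lower with E332K. The shares over all genes tested were 13.8% higher and 14.3% lower with v1, and 7.93% and 7.09% with E332K. Ppara, the fatty acid receptor, fell with both CB-driven ST3GAL5 vectors (−1.66 with v1 and −0.55 with E332K). Nr1i3, which encodes CAR, fell with v1 (−1.12), rose with E332K (0.46) and v2 (0.68), and was lower with empty than with PBS (−0.60). The hepatocyte factors Foxa2 (−1.48) and Cebpa (−0.83) and the bile acid receptor Nr1h4 (−0.77) fell with v1, and Cebpb rose (2.05). Nfe2l2, which encodes NRF2, rose with both, by 0.78 with v1 and 0.41 with E332K. Of the well-known target genes of AHR, CAR, PXR and NRF2, 5 of 12 were higher and 3 lower with v1, and 2 of 13 higher and 1 lower with E332K. Cyp1a2, an AHR target, fell with 3 vectors (−3.07 with v1, −2.36 with E332K and −1.51 with v2), and Cyp3a11, a PXR target, fell with v1 (−0.85). The NRF2 targets Srxn1 (1.57), Hmox1 (0.99) and Txnrd1 (0.53) rose with v1, and Srxn1 also rose with E332K (1.10). The same scale and threshold hold for all of these genes.

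Markers of liver cell types were counted in the same comparisons. Over all genes tested, 13.8% rose and 14.3% fell with v1, and 7.93% rose and 7.09% fell with E332K. The marker lists were not tested against these shares. Hepatocyte markers fell in 10 of 15 and rose in 3 with v1 (median −0.45), and their summed level was 107337 to 134013 CPM with v1 against 144097 to 169468 CPM with empty and 131905 to 148028 CPM with E332K. With E332K, 2 of the 15 rose (Ambp and Hpx) and 3 fell (Alb, Apob and Cps1). Neutrophil markers rose in 11 of 12 with v1, and with E332K 5 rose and Mmp8 fell, with sums of 1772 to 1921 CPM with empty, 2642 to 2973 CPM with v1 and 2143 to 2636 CPM with E332K. T and NK cell markers rose in 5 of 7 tested with v1 and 1 of 8 with E332K, with sums of 40.8 to 54.4 CPM with empty and 88.5 to 103.9 CPM with v1. Cholangiocyte markers rose in 3 of 7 with v1, from sums of 53.2 to 82.0 CPM with empty to 124 to 176 CPM, and with E332K Krt7 fell, with sums of 52.4 to 67.9 CPM. Kupffer cell and monocyte markers had 3 higher and 4 lower of 11 with v1, sinusoidal endothelial markers 2 and 4 of 8, stellate cell markers 2 and 1 of 10 and erythroid markers 4 and 0 of 11. Their sums were 1153 to 1558, 401 to 475, 748 to 926 and 38184 to 47604 CPM with empty and 1116 to 1463, 330.0 to 391, 799 to 902 and 39799 to 46281 CPM with v1, in the same order. With E332K these lists had 1 higher and 3 lower, 1 and 0, 0 and 4 and 1 and 0. Their sums with E332K were 982 to 1181, 403 to 456, 513 to 705 and 27694 to 59631 CPM. The erythroid sum also spread widely with v2, from 26511 to 54203 CPM. Cftr of the cholangiocyte list and Cd3e of the T cell list had too few counts to be tested. Of the 9 T and NK cell genes, 7 were tested with v1 and 8 with E332K, so the 2 counts do not cover the same genes. The part of cell makeup in the members' levels was not tested.

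Some members had few counts or did not pass. Ugt1a10 was not tested in v1 against empty, and Gsta1 was tested in 3 of the 8 comparisons. Gsta1 was at 8.59 CPM in v2 replicate 2, and it passed the minimum through that liver. Gsta2 (log2 fold change −1.18, SE 0.51, edgeR adjusted p = 0.113) and Sult2a2 (log2 fold change −0.68, SE 0.27, edgeR adjusted p = 0.0858) did not pass with v1, nor with E332K, against empty, and Sult2a2 was lower with v1 than with E332K (log2 fold change −1.12, SE 0.32, edgeR adjusted p = 0.0405). That call was lost without v1 replicate 1 or 2 or E332K replicate 1 or 3 (adjusted p 0.0644 to 0.141). The 16 genes below the minimum are not described further.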

How the data were processed

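Messenger RNA of 22 livers was sequenced from a kit that does not keep the strand, and the submitters' processing notes name Trimmomatic, STAR, RSEM and mm10, while the annotation release is not given in the sources used here. The authors deposited RSEM expected counts and TPM for 55291 genes, of which the expected counts were rounded to whole numbers here (5.69% of values were not whole). Each comparison was fitted on its own 2 groups with edgeR 4.0.16 (R 4.3.3) by the quasi-likelihood test after TMM scaling and filterByExpr, with Benjamini-Hochberg adjustment over all genes tested and a threshold of 0.05. The SE is the absolute log2 fold change divided by the square root of F. CPM were scaled by TMM over all 22 libraries, and the group means and SD are over livers. The labels do not say that replicates of a group came from separate litters, and a p-value covers only the spread among these livers.

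The alternatives tried were the size factors of DESeq2 in edgeR, DESeq2 1.42.0 itself, a fit without the filter on low counts, 1 fit of all 6 groups, a replicate block, a fold change of at least 2, limma 3.58.1 on log2(TPM + 1) and log2(TPM + 0.1) (mean TPM 1 or more), the presence of Gm47283 as a covariate, and leaving out each liver. The members and all gene lists were chosen with earlier results of these data known. Per-liver values were given for the member of highest mean TPM in each prefix, for the 6 largest called changes in each direction with v1 and with the E332K vector, and for 3 in each direction in the other comparisons (mean of at least 1 CPM in the higher group). Positions are from GENCODE vM21 and promoters from RefSeq, read in Python 3.11.15. Vector transcripts were not analysed here, and 0 columns lay outside the labelled samples. Some results, 1 of the promoter motifs searched among them, are not reported here.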

Additional observations from a re-analysis of the deposited data

Results flagged for a closer look

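The CPM of the 23 members with values for each liver were tested for a sample far from the rest in the 4 groups of 4 livers by Dixon's test, and chance flags about 1 in 20 such groups. Of 92 tests, 5 passed, close to the 1 in 20 that chance gives, so a single flag is weak evidence of an unusual liver. Gstp1 had 393 CPM in PBS replicate 1, where the next liver had 296 CPM. Gstm1 had 172 CPM in EGFP replicate 3, below the next at 193 CPM, and Gstt1 had 98.1 CPM in EGFP replicate 4, above the next at 82.1 CPM. Gstt3 had 13.2 CPM in empty replicate 1, against 8.0 CPM in the next liver, and its fall with v1 was measured against this group. Gstp2 had 10.5 CPM in v2 replicate 2, against 4.23 CPM in the next liver, which is also the liver with 8.59 CPM of Gsta1. The groups with 3 livers, v1 and E332K, were not tested this way.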

How the results depend on the processing

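No called member changed direction under any alternative run. The share of all genes called was counted for the main fits only, so the counts below have no such share beside them. The calls kept in each comparison were counted over every alternative except the minimum of a 2-fold change. They were 8 of 29 for v1 against empty, 10 of 19 for E332K against empty and 0 of 2 for EGFP against empty. For v2 against empty they were 1 of 5, and for empty against PBS 0 of 2. For v1 they were 20 of 27 against EGFP, 7 of 21 against v2 and 8 of 23 against E332K. Requiring at least a 2-fold change left 0 higher and 13 lower for v1 against empty, 5 and 3 for E332K, 0 higher for EGFP, 0 and 0 for v2, 0 lower for empty against PBS, 14 lower for v1 against EGFP and 10 lower against v2. By limma on log2(TPM + 1) and log2(TPM + 0.1), 6 and 6 members were higher with E332K, 0 and 1 with EGFP, 1 and 1 with v2, 6 and 6 lower with v2, 0 and 0 lower with empty than with PBS, 10 and 11 lower with v1 than with v2 and 10 and 10 lower with v1 than with E332K. With the presence of Gm47283 as a covariate, 0 members were higher and 8 lower with v1, 1 higher with EGFP, 1 lower with v2, 1 lower with empty than with PBS and 7 lower with v1 than with v2. That fit could not be made for v1 against E332K, where Gm47283 was counted in every E332K liver and in no v1 liver. DESeq2 called 2 higher with v1, 4 lower with v2 and 4 lower with empty than with PBS, no filter gave 0 higher with v1 and 4 lower with empty than with PBS, and 1 fit of all 6 groups gave 1 higher with EGFP and 0 lower with empty than with PBS.

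Leaving out 1 liver gave 0 to 1 higher with v1, 1 to 2 higher and 0 to 1 lower with EGFP, 0 to 3 higher and 1 to 4 lower with v2, 0 to 1 higher and 1 to 3 lower with empty than with PBS, 0 to 1 higher with v1 than with EGFP, 8 to 21 lower with v1 than with v2 and 10 to 25 lower with v1 than with E332K. With the replicate number as a block, 0 members were higher with v1, 6 were higher with E332K and 11 were lower with v1 than with v2. Over 27 pairs of livers with the same number, the correlation of their deviations from the group means was −0.204 to 0.278 (median 0.022). In 0 of 8 comparisons were all pairs above 0.1. For v2 against empty the 4 pairs had 0.109, 0.00476, 0.147 and 0.122. With so few livers in a group, this check cannot show whether same-numbered livers shared a litter or batch. Over all genes, the TPM fits moved the median log2 fold change by −0.12 to 0.21, and other scalings by under 0.1. The cause of these changes was not tested. Members under 1 CPM, such as Ugt1a10 and Sult2a6, are limited by depth.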
